A study of Homo sapiens with 4 samples.

Results

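The 7 RNAs described here are the precursor of ribosomal RNA, listed as RNA45SN2, and 6 small RNAs that end without a poly(A) tail, RMRP, RN7SK, TERC, RNU6-1, RNU6-2 and RNU6-9. They were taken by gene symbol from a table of 46427 genes, and all 7 were found. The set was chosen by values measured in these libraries, namely the differences in count between the vectors, so those differences are given as a description with no test. The cells were SNU638, a line grown from human gastric cancer, with the control vector in 2 biological replicates and a vector for YTHDF1 overexpression in another 2. YTHDF1 is a cytoplasmic protein that binds messages methylated at adenosine. All 4 cultures were kept without serum for 24 h and then given IFN‐γ at 10 ng/ml, so the 2 groups differ in the vector only and hold no untreated cells. The labels give 8 h of IFN‐γ, whereas the figure legends give 24 h.

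Ribosomal RNA is made in the nucleolus by RNA polymerase I as a long precursor, which is cut into the 18S, 5.8S and 28S RNAs of the ribosome. RMRP is the RNA of RNase MRP, an enzyme that cuts this precursor. RN7SK, the 7SK RNA, holds the elongation factor P-TEFb in an inactive complex. TERC is the template RNA of telomerase, and the RNU6 genes make U6, the spliceosomal RNA at the catalytic centre of the splicing machinery. RMRP, RN7SK and U6 are made by RNA polymerase III and TERC by RNA polymerase II. The libraries were made by a stranded kit that selects RNA with poly(A), so counts on these 7 genes are of RNA that passed a selection for a tail that the mature RNAs lack. Whether these reads came from tailed forms, from A-rich stretches or from RNA carried over was not tested.

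The sequences of RMRP and parts of RN7SK and TERC are shown because they say how long a run of A each holds, which bears on a selection for poly(A). They were taken from the GENCODE v29 transcripts on GRCh38, are written 5′ to 3′, and have the longest runs of A in capitals. In the same annotation RNU6-1, RNU6-2 and RNU6-9 have the same 107 bases, with 0 differences, so a read inside the RNA cannot be assigned to a single gene of the 3.
RMRP: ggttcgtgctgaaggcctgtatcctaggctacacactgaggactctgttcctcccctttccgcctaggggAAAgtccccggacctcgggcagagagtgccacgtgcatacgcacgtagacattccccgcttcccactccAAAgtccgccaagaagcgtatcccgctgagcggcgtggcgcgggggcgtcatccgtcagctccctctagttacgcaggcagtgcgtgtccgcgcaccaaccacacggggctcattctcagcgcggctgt
RN7SK, bases 209 to 328 of 328: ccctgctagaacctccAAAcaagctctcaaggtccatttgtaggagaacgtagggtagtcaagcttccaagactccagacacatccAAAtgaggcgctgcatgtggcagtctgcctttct
TERC, bases 1 to 200 of 541: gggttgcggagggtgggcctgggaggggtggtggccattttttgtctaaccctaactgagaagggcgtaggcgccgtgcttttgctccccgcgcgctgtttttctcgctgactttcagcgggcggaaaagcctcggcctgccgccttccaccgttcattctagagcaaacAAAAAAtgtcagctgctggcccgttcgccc
The longest run of A was 3 bases in RMRP, 3 in RN7SK and 6 in TERC. RMRP lies at chr9:35657751-35658018 on the minus strand in that annotation, RN7SK at chr6:52995621-52995948 on the plus strand and TERC at chr3:169764520-169765060 on the minus strand. In RefSeq's GRCh38.p14 the gene RNA45SN2 (Gene ID 109864279) spans chr21:8205988-8219302, which is 13315 bases, and it overlaps RNA18SN2, RNA5-8SN2, RNA28SN2 and MIR3648-1. RefSeq gives TERC as 451 bases and places RNU6-1 at chr15:67839939-67840045, RNU6-2 at chr19:1021522-1021628 and RNU6-9 at chr19:893484-893590, with no overlapping gene at these 4 loci.

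The libraries held between 57398137 and 60864942 counts. YTHDF1 itself had 4889 and 4555 counts with the control vector, against 971190 in YTHDF1 replicate 1 and 158662 in YTHDF1 replicate 2. Libraries with the same replicate number were more alike than libraries with the same vector, since the correlation of log2 CPM across genes was 0.985 and 0.983 within numbers 1 and 2, 0.885 within control and 0.888 within YTHDF1. Genes are not independent replicates, so these are descriptions. Of 8 epithelial and gastric markers 5 reached 1 CPM in all 4 libraries, namely EPCAM, KRT8, KRT18, KRT19 and CDH1. TFF1 and CLDN18 had 0 counts, and MUC5AC had counts but did not reach 1 CPM in all 4 libraries. Gastric identity is not read from these markers. The summed levels of the markers of other cell types were 5.20 to 6.17 CPM for 4 immune genes, 6.57 to 11.7 CPM for 4 fibroblast genes and 0.232 to 0.560 CPM for 3 endothelial genes.

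RNA45SN2 and RMRP were the 2 members with lower levels in both YTHDF1 libraries than in both control libraries. RNA45SN2 had 11841 counts in control replicate 1 and 9073 in control replicate 2, against 6334 in YTHDF1 replicate 1 and 7616 in YTHDF1 replicate 2. Pairs of values below are in this order, replicate 1 before 2. These were 199 and 160 CPM against 108 and 126 CPM, where CPM are counts scaled to 1e6 of a library size scaled by TMM. The control libraries averaged 180 ± 27.7 CPM (SD, n = 2) and the YTHDF1 libraries 117 ± 13.1 CPM (SD, n = 2), and the groups did not overlap. The difference was wider in replicate number 1, where the YTHDF1 library had 0.540 of the control level (95% exact binomial interval 0.524 to 0.557), than in number 2, where it had 0.789 (0.765 to 0.813). Such intervals hold the error of counting reads alone and leave out differences between cultures. These reads carry no molecular identifiers and several may stem from 1 molecule, so the intervals may be too narrow even for counting.

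RMRP was far less abundant, at 62 and 53 counts in control against 26 and 23 with YTHDF1. Its mean level was 0.988 ± 0.077 CPM (SD, n = 2) in control, and YTHDF1 libraries had 0.411 ± 0.043 CPM (SD, n = 2). The ratio of YTHDF1 to control was 0.423 (0.257 to 0.679) in number 1 and 0.408 (0.238 to 0.677) in number 2, so RMRP, unlike RNA45SN2, was lower by nearly the same factor in both. With so few counts each interval spans more than a doubling of the ratio. In bulk RNA a smaller amount of an RNA per cell and fewer cells that hold it cannot be told apart.

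**Figure D1:**
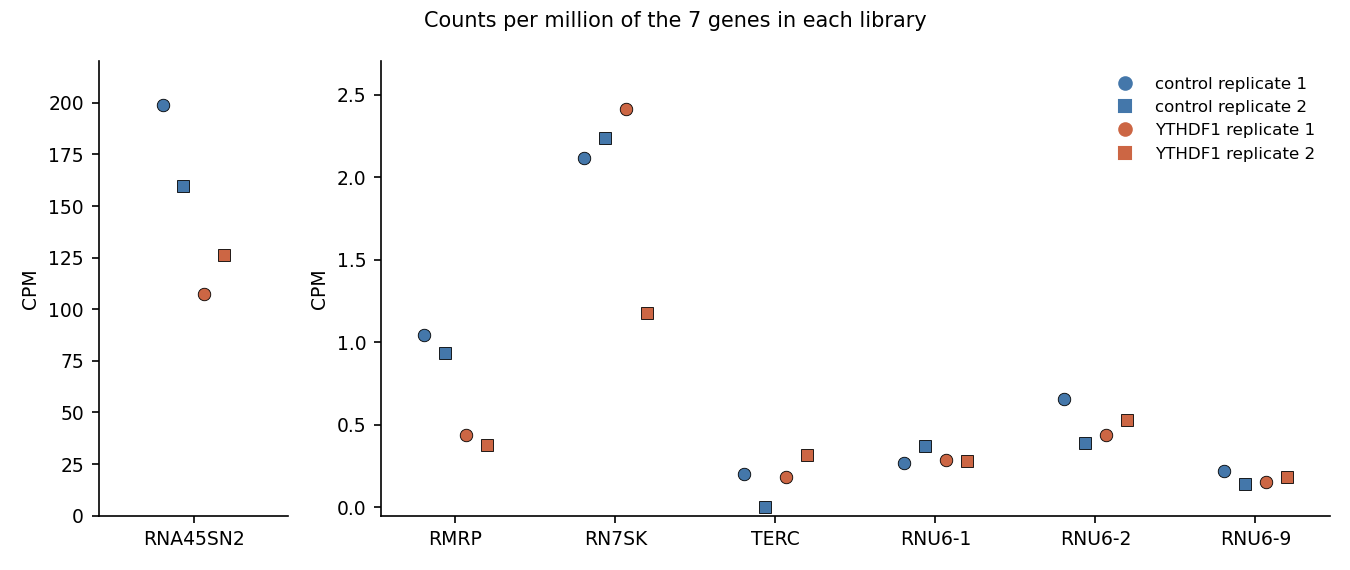
Level of each of the 7 RNAs in CPM (y axis, linear, with a scale of its own for RNA45SN2 on the left). Each point is a library, coloured by vector, with circles for replicate 1 and squares for replicate 2. RNA45SN2 and RMRP are lower in both YTHDF1 libraries, whereas the libraries of the 2 vectors overlap for the other 5.

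The other 5 members did not share this pattern, since 0 of the 5 were lower within both replicate numbers and the libraries of the 2 vectors overlapped for each. RN7SK had 126 and 127 counts in control against 142 and 71 with YTHDF1. It was thus level with control in number 1, at a ratio of 1.14 (0.889 to 1.46), and low in YTHDF1 replicate 2 alone, at a ratio of 0.525 (0.387 to 0.708). Without that library the log2 difference between the vectors was 0.14, against -0.28 ± 0.48 (SE) with all 4.

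TERC had 12 and 0 counts in control against 11 and 19 with YTHDF1. In number 1 the ratio was 0.926 (0.370 to 2.29). In number 2 the control library had no count, which allows up to 3 counts, so YTHDF1 replicate 2 was at least 5.95-fold higher against a floor of 3 counts per library, with its own 19 counts taken as exact. The exact binomial lower limit of the ratio, which allows for error in both counts, was 4.38. TERC therefore lay on the other side from RNA45SN2 and RMRP in that number, and the value rests on a single empty library: the fitted log2 difference, 1.29, was 0.31 without control replicate 2.

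The 3 U6 genes had 8 to 39 counts per library. RNU6-1 had 16, 21, 17 and 17 counts, the control libraries first, and the same order gave 39, 22, 26 and 32 for RNU6-2 and 13, 8, 9 and 11 for RNU6-9. Since the 3 sequences are the same, their sum is the safer measure, and it was 68, 51, 52 and 60 counts. RNU6-7 and RNU6-8 differ from them at 1 base only and may share their reads. The sum of all 5 genes was 76, 61, 65 and 70 counts. For the 3 member genes the ratio of the sums was 0.772 (0.528 to 1.12) in number 1 and 1.11 (0.748 to 1.64) in number 2. No difference in U6 was detectable at this depth, and the intervals allow ratios from 0.528 to 1.64.

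**Figure D2:**
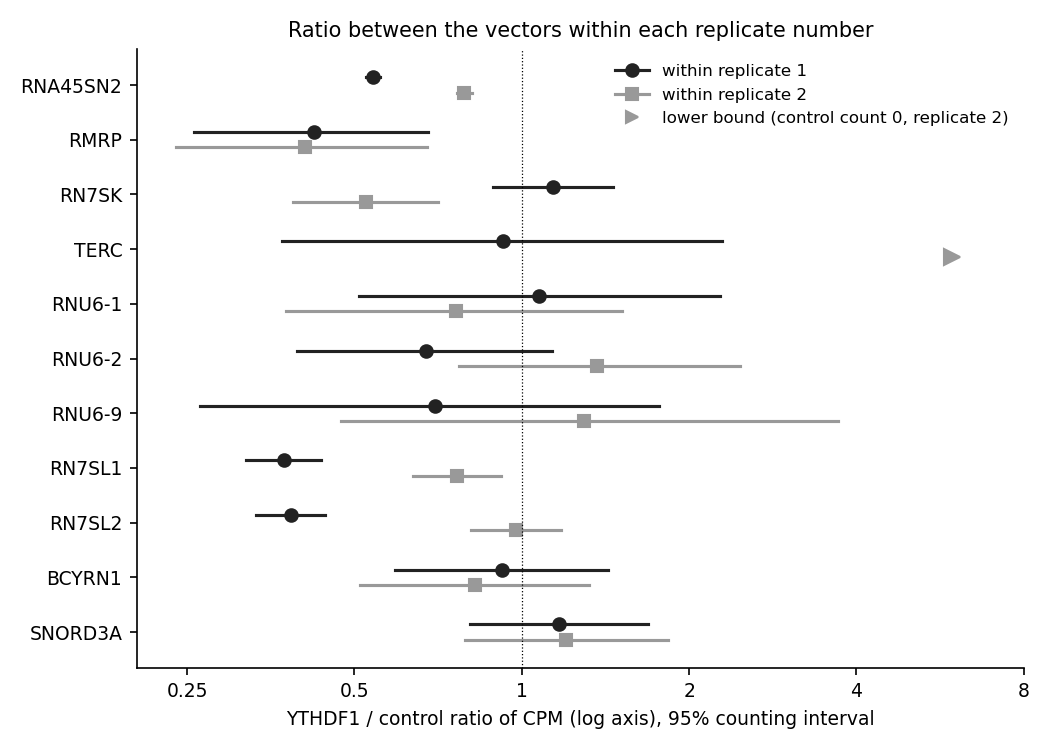
Ratio of the YTHDF1 to the control library (x axis, log scale) within replicate number 1 (dark circles) and number 2 (grey squares) for the 7 RNAs and, below them, RN7SL1, RN7SL2, BCYRN1 and SNORD3A, with 95% exact binomial intervals. The intervals of RNA45SN2, RMRP and RN7SL1 lie below 1 in both numbers, while that of RN7SK lies below 1 in number 2 only. They hold the error of counting reads in single pairs of libraries, and the members were picked from this contrast, so they are no test. The arrow for TERC marks 5.95, its ratio over a floor of 3 counts, with no interval drawn.

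The fitted log2 difference between the vectors, YTHDF1 minus control, was -0.62 ± 0.16 (SE) for RNA45SN2 and -1.26 ± 0.37 (SE) for RMRP. It was -0.16 ± 0.50 for RNU6-1, -0.10 ± 0.48 for RNU6-2 and -0.10 ± 0.64 for RNU6-9 (all SE). All 7 members passed the filter on low counts. With an unadjusted p under 0.05 and a log2 difference of 0.5 or more either way, edgeR's quasi-likelihood test called 2 of the 7 lower, RNA45SN2 and RMRP, where 0.0787% of the 17781 genes tested were called lower. The members were picked from this contrast, so nothing is read from that count, nor from the 2 of 7 whose YTHDF1 libraries both lay below both control libraries, beside 5.83% of all genes, or the 2 of 7 lower within both numbers, beside 23.3%. After adjustment over all genes 0 genes passed, which is 0% of those tested, against 24 genes at an unadjusted p under 0.05. This fit holds no block for the replicate number, and a fit with that block called more genes, as given at the end. DESeq2's Wald test called 3 genes at an adjusted p under 0.05 and limma-voom called 0. Leaving out 1 library moved RNA45SN2 between -0.77 and -0.45 and RMRP between -1.37 and -1.17.

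The contrast between the replicate numbers was not used to choose the members and could be tested. The libraries numbered 2 differed from those numbered 1 for 52.6% of all genes at an adjusted p under 0.05, and for 0 of the 7 members. The log2 difference, number 2 minus number 1, was -0.10 ± 0.23 (SE) for RNA45SN2 (edgeR adjusted p = 0.738), -0.18 ± 0.51 for RMRP (adjusted p = 0.787), -0.41 ± 0.29 for RN7SK (adjusted p = 0.265) and -0.28 ± 1.00 for TERC (adjusted p = 0.837). For the U6 genes it was 0.22 ± 0.44 for RNU6-1, -0.25 ± 0.38 for RNU6-2 and -0.20 ± 0.57 for RNU6-9, with adjusted p of 0.698, 0.606 and 0.795. Standard errors ran from 0.23 to 1.00, so these values do not show that the members were alike between the numbers. They depend on single libraries too: RNA45SN2 was at 0.41 without control replicate 1 (adjusted p = 0.0123) and at -0.48 without YTHDF1 replicate 1 (adjusted p = 0.00515). RN7SK passed without control replicate 2, at -0.94 (adjusted p = 0.0251), and TERC passed without YTHDF1 replicate 2, at -6.52 (adjusted p = 0.0376), a value set by the 0 count of control replicate 2.

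Scaled to gene length in RefSeq, the mean level over the 4 libraries was highest for RNA45SN2, at 11.1 CPM per kb. RN7SK followed at 5.98, RNU6-2 at 4.71, RNU6-1 at 2.83, RMRP at 2.59, RNU6-9 at 1.62 and TERC at 0.390 CPM per kb. In every library RNA45SN2 was the highest of the 7 single rows, at 8.08 to 15.0 CPM per kb. RN7SK ranged from 3.54 to 7.26, RMRP from 1.41 to 3.86 and TERC from 0 to 0.698 CPM per kb. RN7SK overlapped with RNU6-2, its neighbour in the order, and RMRP overlapped with RNU6-1 and RNU6-9 over the 4 libraries. RMRP was at 3.86 and 3.46 CPM per kb in control, beside 2.51 and 3.46 for RNU6-1, so the 2 were level in control replicate 2. With YTHDF1 RMRP was at 1.63 and 1.41 CPM per kb, below both YTHDF1 libraries of RNU6-1. That restates the vector difference from which RMRP was picked. The order among the U6 genes is uncertain, as their reads cannot be told apart. The places of the other RNAs relative to U6 also depend on how those reads were divided. Summed over the 3 genes, U6 was at 1.14 and 0.899 CPM in control and 0.883 and 0.993 CPM with YTHDF1. Scaled to 107 bases, that sum lay above RN7SK and RMRP in every library, and above RNA45SN2 in YTHDF1 replicate 1.

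RNA45SN2 was then set beside the other rows of ribosomal RNA. The 3 precursor rows did not behave alike. RNA45SN1 had 192 and 188 CPM in control and 130 and 143 CPM with YTHDF1, without overlap, whereas RNA45SN3 had 222 and 159 CPM in control and 150 and 176 CPM with YTHDF1 and overlapped. In number 2 the log2 difference was -0.34 for RNA45SN2, -0.40 for RNA45SN1 and 0.14 for RNA45SN3, while in number 1 all 3 were lower, at -0.89, -0.56 and -0.56. These genes are near-identical copies and each contains its own 18S, 5.8S and 28S rows, so how the authors' counting divided reads among them is uncertain. RNA45SN2 took 32.4% and 31.5% of the precursor counts in control and 27.7% and 28.4% with YTHDF1. Summed over the 3 rows, the precursor was at 614 and 508 CPM in control and 388 and 445 CPM with YTHDF1, a fitted log2 difference of -0.43.

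The 28S rows followed the precursor in number 1 but not in number 2, and the 18S rows went the other way. The 28S rows summed to 29520 and 18976 CPM in control and 17445 and 21204 CPM with YTHDF1, a log2 difference of -0.76 in number 1 and 0.16 in number 2. Control replicate 1 alone was high. The 18S rows summed to 806 and 693 CPM in control and 1080.3 and 791 CPM with YTHDF1, which was 0.42 higher in number 1 and 0.19 higher in number 2 on the log2 scale. Between the numbers the 18S sum was lower in number 2 by a log2 difference of -0.35 ± 0.12 (SE; edgeR adjusted p = 0.0383), whereas the precursor sum differed by -0.07 ± 0.17 (adjusted p = 0.736) and the 28S sum by -0.23 ± 0.19 (adjusted p = 0.349). Libraries of the 2 vectors were thus apart and lower with YTHDF1 for 2 of the 3 precursor rows, beside 5.83% of all genes. They were so for 0 of the 28S and 18S rows. The rows are near-identical copies and RNA45SN2 was picked from this contrast, so nothing is read from that count. RNA18SN2 was apart the other way, at 270 and 234 CPM in control and 369 and 274 CPM with YTHDF1. Of the 17781 genes tested 1008 were apart that way. The 3 rows of 5.8S had at most 4 counts and the 17 rows of 5S at most 2.

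Ratios within a library do not depend on scaling. There were 2.08 and 2.67 precursor counts per 100 counts of 28S in control against 2.23 and 2.10 with YTHDF1, which overlapped. Per 100 counts of 18S there were 76.1 and 73.3 in control and 35.9 and 56.2 with YTHDF1, without overlap. The 28S rows had 36.6 and 27.4 times the counts of 18S in control and 16.1 and 26.8 times with YTHDF1. Ribosomal RNA made up 3.14% and 1.99% of all counts in control and 1.90% and 2.23% with YTHDF1, so the share that passed selection was highest in control replicate 1, and the part of this in the RNA45SN2 difference was not tested.

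**Figure D3:**
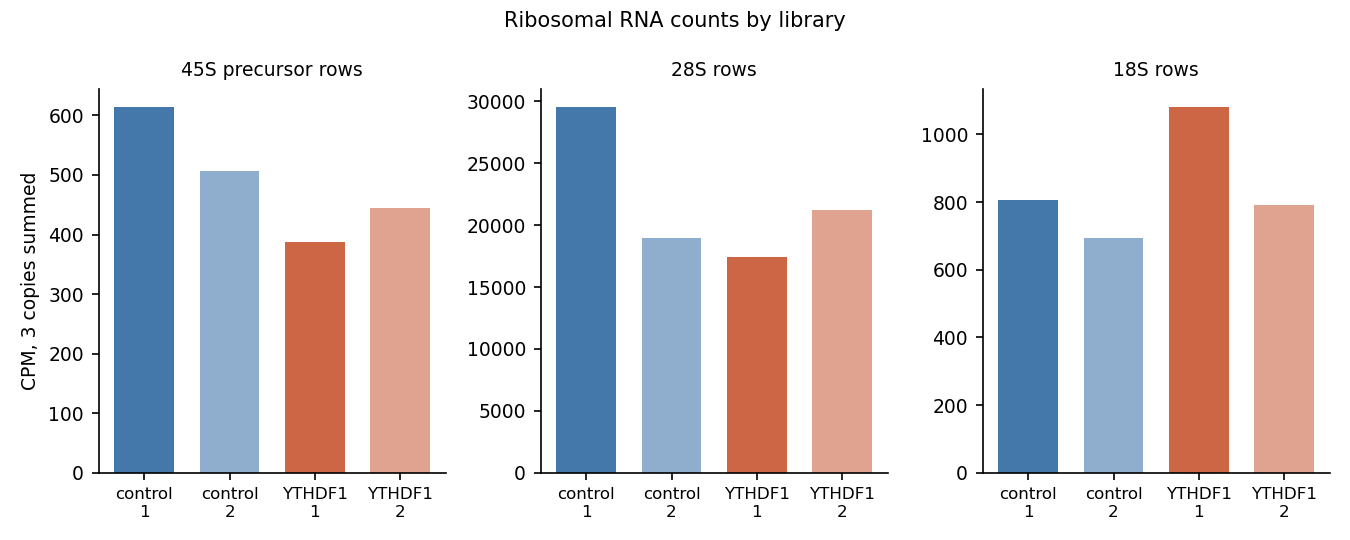
Summed CPM (y axis, from 0, own scale in each panel) of the precursor, 28S and 18S rows in the 4 libraries. The precursor sum is 614 and 508 CPM in control and 388 and 445 CPM with YTHDF1, the 28S sum is highest in control replicate 1, and the 18S sum is highest in YTHDF1 replicate 1.

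Among other untailed RNAs of RNA polymerase III, RN7SL1 came closest to RNA45SN2. It makes the 7SL RNA of the signal recognition particle, which guides nascent secreted proteins to the endoplasmic reticulum, and had 603 and 270 counts in control and 223 and 220 with YTHDF1. The groups did not overlap, at a ratio of 0.373 (0.319 to 0.436) in number 1 and 0.765 (0.638 to 0.918) in number 2. RN7SL2, which differs from RN7SL1 at 4 of 299 aligned bases and may share its reads, had 720 and 226 counts in control and 274 and 235 with YTHDF1, so control replicate 1 alone was high and the groups overlapped. RefSeq places RN7SL1 over RPS29, and reads of the 2 genes may be split by the counting. Between the numbers RN7SL2 was lower in number 2 by a log2 difference of -1.09 ± 0.36 (SE; edgeR adjusted p = 0.0312), while RN7SL1 differed by -0.73 ± 0.38 (adjusted p = 0.136).

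BCYRN1, the BC200 RNA of RNA polymerase III, had 46 and 41 counts in control and 42 and 36 with YTHDF1, a ratio of 0.922 in number 1 and 0.825 in number 2. It was the third of 3 tested RNAs of its list to be lower within both numbers, with RN7SL1 and RN7SL2. Among all genes tested 23.3% were lower within both. The intervals of BCYRN1 were 0.592 to 1.43 and 0.512 to 1.32, and RN7SL2 was at -0.03 on the log2 scale in number 2. SNORD3A, the U3 RNA that guides early cuts of the ribosomal precursor, had 58 and 43 counts in control and 67 and 55 with YTHDF1, which was higher by 0.22 and 0.26 on the log2 scale within numbers 1 and 2, with overlap. RPPH1, the RNA of RNase P and nearest relative of RMRP, had 6 and 5 counts in control and 1 and 7 with YTHDF1, too few to compare. RNU6ATAC had 12 and 7 counts in control and 3 and 8 with YTHDF1, SCARNA17 had 6 and 10 against 2 and 7, and RNU6-8 had 7 and 9 against 12 and 9, and none of these 3 passed the filter. The 24 spliceosomal and U7 rows had at most 5 counts each and 0 were tested.

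MALAT1 and NEAT1, nuclear long RNAs whose long forms end by RNase P cleavage, hardly differed between the vectors. NEAT1 had 18250 and 28900 counts in control and 18040 and 30643 with YTHDF1, and MALAT1 had 3538 and 4862 against 3360 and 4733. Both were higher in number 2, NEAT1 by 0.73 ± 0.03 (SE; edgeR adjusted p = 2.5e-07) and MALAT1 by 0.49 ± 0.05 (adjusted p = 9.7e-05) on the log2 scale. The best measured small nucleolar RNAs, which guide changes of single bases in ribosomal RNA and others, were mixed. SNORD22 had 134 and 146 counts in control and 112 and 97 with YTHDF1, without overlap, and SNORA40 was lower by -0.32 and -0.30 within the numbers. SNORA67 was at -0.10 and -0.40, SNORA104 at 0.05 and 0.05, and SNORD80 at 0.01 and -0.04 on the same scale.

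Over all lists of untailed RNAs, 712 rows were in the table and 180 passed the filter. RNA45SN2 and RMRP were the 2 of the 180 called lower between the vectors, the contrast they were picked from, and 0 were called higher. In this fit, which holds no block for the replicate number, 0 of the 173 others were called in either direction. A fit with that block called more untailed RNAs lower, as given at the end. Of those 173, 56 were lower within both replicate numbers (32.4%) and 33 were higher within both (19.1%), beside 23.3% lower and 27.3% higher among all genes tested. The excess of lower genes lay with the replication-dependent histone messages, which end in a stem-loop, since 24 of their 46 tested genes were lower within both and 2 higher. Without members and histones 32 of 127 were lower within both (25.2%) and 31 were higher (24.4%), close to the share of all genes. Small nucleolar RNAs other than those with their own promoters split 26 lower to 27 higher of 113, with a median log2 difference of 0.01 in number 1 and -0.04 in number 2. The 2 calls depended on single libraries. RMRP was not called with any 1 of the 4 libraries left out. RNA45SN2 was not called without control replicate 1 or without YTHDF1 replicate 1, where 0 untailed RNAs were called lower. It was called without control replicate 2, with RN7SL1 and RN7SL2 (3 in all), and without YTHDF1 replicate 2, with RNA45SN1 (2 in all).

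**Figure D4:**
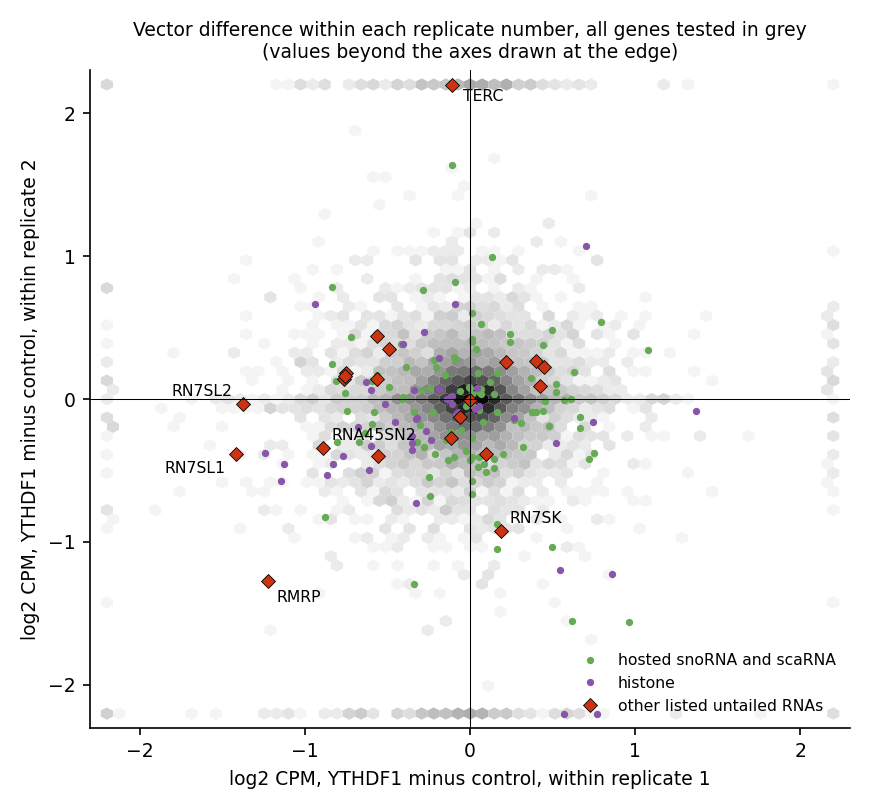
Log2 difference between YTHDF1 and control within replicate number 1 (x axis) and number 2 (y axis), with all genes tested in grey, hosted small nucleolar RNAs in green, histones in purple and the other listed untailed RNAs as red diamonds, values beyond the axes being drawn at the edge. RNA45SN2 and RMRP lie in the lower left, at -0.89 and -0.34 and at -1.22 and -1.28, while 0 of the other 5 members lie below 0 on both axes.

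Messages for the proteins that work with these RNAs had far more counts, and differed little between the vectors. No protein was measured in these libraries. All 128 genes of 8 lists were tested in the fit without a block, and 0 were called lower or higher. For the messages named below the SE between the vectors ran from 0.086 for EXOSC10 to 0.49 for PAPOLA, so smaller differences could be missed. Of the 128, 28 were lower within both numbers (21.9%) and 29 higher within both (22.7%). Of 11 protein subunits of RNase MRP and RNase P, the partners of RMRP, 1 was lower and 4 were higher within both numbers. POP1, the largest of these subunits, had 42.5 and 26.3 CPM in control and 46.2 and 24.8 CPM with YTHDF1, and POP7 had 33.7 and 32.4 CPM against 31.9 and 33.9 CPM. Of 15 genes for RNA polymerase I and its factors 5 were lower and 4 higher within both. TAF1D, a subunit of the selectivity factor that places this polymerase on the ribosomal promoter, was at 183 and 158 CPM in control and 162 and 139 CPM with YTHDF1, or -0.18 and -0.19 on the log2 scale, and UBTF, an activator at the same promoter, was at 163 and 149 against 159 and 154 CPM.

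The other lists gave like counts. Of 26 proteins that process ribosomal RNA 4 were lower and 5 higher within both numbers, and the abundant nucleolar proteins NCL, at 1483 and 1641 CPM in control and 1542 and 1591 CPM with YTHDF1, and NPM1, at 1534 and 1520 against 1603 and 1483 CPM, overlapped. Of 30 genes for RNA polymerase III and its factors 5 were lower and 8 higher, with GTF3C1, a subunit of TFIIIC, at 163 and 189 CPM in control and 163 and 188 CPM with YTHDF1. MAF1, the repressor of that polymerase, was at 121 and 92.1 against 111 and 98.0 CPM. Of 7 proteins of the 7SK complex 1 was lower and 2 higher, and HEXIM1, which inhibits P-TEFb when bound to 7SK, was at 161 and 116 CPM in control and 155 and 117 CPM with YTHDF1, beside CCNT1, a cyclin of P-TEFb, at 109 and 93.4 against 119 and 97.8 CPM.

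Of 7 telomerase genes 3 were lower and 1 higher within both numbers, with DKC1, which binds TERC, at 146 and 142 CPM in control and 155 and 142 CPM with YTHDF1, and NOP10, its partner, at 75.9 and 83.3 against 75.6 and 84.7 CPM. Of 12 proteins that bind or finish U6 RNA 4 were lower and 3 higher, with LSM4, part of the ring on the U6 tail, at 127 and 89.8 against 130 and 97.4 CPM, and SSB, the La protein that binds new ends of RNA polymerase III transcripts, at 124 and 99.5 against 124 and 88.7 CPM. Of 20 factors of nuclear tailing, trimming and the exosome 5 were lower and 2 higher. PAPOLA, the main poly(A) polymerase, was at 266 and 141 CPM in control and 270.4 and 141 CPM with YTHDF1, and EXOSC10, a nuclease of the exosome, was at 112 and 118 against 110 and 117 CPM.

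Between the replicate numbers 17 of these 128 messages were higher and 61 lower in number 2 at an adjusted p under 0.05, where 23.6% of all genes tested were higher and 29.1% lower. PAPOLA was lower in number 2 by a log2 difference of -0.92 ± 0.04 (SE; edgeR adjusted p = 1.5e-07), POP1 by -0.80 ± 0.06 (adjusted p = 1.3e-05) and HEXIM1 by -0.44 ± 0.04 (adjusted p = 2.7e-05). By list, 10 were lower and 1 higher of 15 for RNA polymerase I. Of 30 for RNA polymerase III 10 were lower and 5 higher. Of 26 for processing of ribosomal RNA 11 were lower and 3 higher. Of 20 for nuclear tailing, trimming and the exosome 11 were lower and 3 higher. For the 7SK complex 6 of 7 were lower and 0 higher, for U6 7 of 12 were lower and 2 higher, for RNase MRP and RNase P 4 of 11 were lower and 2 higher, and for telomerase 2 of 7 were lower and 1 higher.

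The genes with the pattern most like a member over the 4 libraries were found by the distance between centred log2 CPM values. For RNA45SN2, among 14192 genes, these were the pseudogene HSPD1P4 at a distance of 0.142, SWSAP1, which takes part in recombination, at 0.154 and the pseudogene PSMC6P1 at 0.177. For RMRP, among 14193 genes, TNFSF13, the ligand APRIL, was nearest at 0.308, with 128 and 131 counts in control and 57 and 63 with YTHDF1, followed by GDPD3 at 0.468 and STAG3L3 at 0.515. A distance over 4 libraries is a description.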

How the data were processed

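RNA was sequenced in SNU638 cells with the control or the YTHDF1 vector, 2 replicates each. The libraries were stranded and of poly(A) RNA. The authors deposited raw counts of reads for each gene, with no normalization. The submitters' processing notes name GRCh38, Trimmomatic and HISAT2. The counting tool, its strand setting and its treatment of reads that match several genes are not given in the sources used here, which bears most on identical copies and nested rows. Of 46427 genes 20072 had 0 counts in all libraries.

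Genes were kept by filterByExpr (17781), scaled by TMM and tested by the quasi-likelihood test of edgeR 4.0.16 in R 4.3.3, with Benjamini-Hochberg adjustment over all genes tested. Calls follow the study's thresholds, a log2 difference of 0.5 or more either way with a p under 0.05. Each standard error is the absolute log2 difference divided by the square root of its F. Within a replicate number, log2 CPM with a prior count of 0.5 were subtracted. Intervals are exact binomial at 95%, and a count of 0 was given a floor of 3 counts. Replicates differed by more than sampling noise (chi-square per degree of freedom 147 in control and 179 in YTHDF1). Alternatives were DESeq2 1.42.0, limma-voom (limma 3.58.1), other scalings, filters and prior counts, the replicate number as a block, and each library left out. The procedure was tested on simulated data. Plots used matplotlib 3.10.9 under Python 3.11.15.

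The members and lists were chosen with earlier results of these data known. Named are the members, listed untailed RNAs with at least 10 counts in a library (for hosted small nucleolar RNAs the 5 most abundant, for histones none), per protein list called genes and the 2 most abundant, and the 3 genes nearest in pattern among those with a mean of at least 50 counts. RPPH1 was named although below that minimum, after its values were seen. The sequence of U6 is not reported here.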

Additional observations from a re-analysis of the deposited data

How the results depend on the processing

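With no filter on low counts the vector comparison called 50 genes lower and 32 higher, against 14 and 4. DESeq2's Wald test called 2 lower and 1 higher at an adjusted p, against 0, and 1 of the untailed RNAs lower, RNA45SN2, in place of 2. With the replicate block 134 genes were lower and 58 higher, and 5 untailed RNAs were lower, namely RNA45SN2, RMRP, RN7SL1, RN7SL2 and H2BC17. By an adjusted p alone 8 genes were lower and 2 higher with it, among them 1 untailed RNA, RNA45SN1. The numbers form only 2 pairs and the labels give them no meaning, so the samples share only a number, although deviations of same-numbered libraries correlated at 0.875. Leaving out 1 library gave 11 to 55 genes lower and 4 to 49 higher, 0 to 3 untailed RNAs lower and 0 to 1 higher, the last being TERC. With a group of 1 library, that library is assumed to vary like the others. The untailed RNAs lower within both numbers were 56 to 58 under other prior counts and scalings. RNA45SN2 and RMRP stayed lower under each alternative run, and with the 3 precursor rows summed, an alternative chosen after seeing the data, the difference was -0.43. The leave-one-out ranges between the vectors were -0.89 to 0.14 for RN7SK, 0.31 to 6.89 for TERC, -0.37 to 0.08 for RNU6-1, -0.43 to 0.32 for RNU6-2 and -0.38 to 0.25 for RNU6-9. Between the numbers they were -0.48 to 0.41 for RNA45SN2, -0.95 to 0.57 for RMRP, -0.94 to -0.01 for RN7SK, -6.52 to 0.70 for TERC, 0.02 to 0.41 for RNU6-1, -0.51 to 0.058 for RNU6-2 and -0.43 to 0.083 for RNU6-9. The causes were not tested. Depth limits the small RNAs most, at 0 to 142 counts a library.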

Other observations

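The mitochondrial ribosomal RNAs, chosen for mention after their values were seen, differed more between the replicate numbers than between the vectors. RNR2, the large one, had 288190 and 104186 counts in control against 260092 and 93803 with YTHDF1, and was lower in number 2 by a log2 difference of -1.45 ± 0.08 (SE; edgeR adjusted p = 1.5e-06). RNR1, the small one, had 35103 and 10284 counts in control and 27457 and 9398 with YTHDF1, with a difference of -1.65 ± 0.11 (SE; adjusted p = 3.1e-06). Both were also lower with YTHDF1 within both numbers, as were 23.3% of all genes tested. The log2 differences were -0.34 and -0.22 for RNR1 and -0.13 and -0.24 for RNR2, and the libraries of the vectors overlapped for each. Unlike the nuclear precursor, these RNAs are given short tails in mitochondria.

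Copies of the small RNA genes elsewhere in the genome were also counted. The 138 pseudogene rows of 7SL, of which 111 had 0 counts in all libraries, summed to 162 and 140 counts in control and 135 and 143 with YTHDF1. The 169 pseudogene rows of U6, of which 138 had 0 counts in all libraries, summed to 66 and 72 counts in control and 61 and 67 with YTHDF1. For U6 this is about as many counts as the 3 U6 genes held.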
